A study of Caenorhabditis elegans with 2 samples.

Results

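The histone genes of Caenorhabditis elegans are described here by the peaks of T22C8.4, a protein that the RefSeq annotation names for its C2H2-type zinc finger domain, at their promoters. Members were the protein-coding genes of Ensembl release 115 whose symbol starts with his-, which gave 72 genes of 19973 nuclear protein-coding genes. A gene counted as having a peak when a summit, the highest point of a peak, lay between 1000 bp upstream and 200 bp downstream of the 5' end of any of its transcripts. Identical copies share a symbol in Ensembl, where the 72 genes carry 50 distinct symbols, so the RefSeq names were used, matched by gene identifier, and these differ from the Ensembl symbol for 22 genes.

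Histones are the proteins that DNA winds around to form nucleosomes. A nucleosome core holds the histones H2A, H2B, H3 and H4, and the linker histone H1 binds where DNA enters and leaves it. Genes for the core histones of the replication-dependent kind lie in clusters, often in pairs that are read in opposite directions from a shared promoter, and in animals they are transcribed mainly during DNA replication. Variants such as H3.3 are made outside replication as well. Dividing embryos need large amounts of both histones and DNA.

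The data came from 2 biological replicates, which form 1 group: whole mid-stage embryos of strain OP785 with a labelled age of 2 hours, collected by bleaching. All animals carried the transgene wgIs785, in which T22C8.4 is joined to TY1, EGFP and 3xFLAG tags, together with unc-119(+), in the unc-119(tm4063) background. Chromatin was sonicated and precipitated with an antibody against GFP. The labels name a single transgenic strain and not the regulatory sequence driving the fusion, and embryos are a mixture of cell types, so binding in few cells and weak binding in many cannot be told apart.

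The authors' main list held 2415 peaks called from both replicates, the conservative list 2326, and the replicates' own lists 1629 in replicate 1 and 1319 in replicate 2. These lists were cut by the irreproducible discovery rate (IDR), which scores how alike a peak ranks in a pair of lists. Longer ranked lists, without that cut, held 55975 entries for the pooled replicates, 38917 for replicate 1 and 38294 for replicate 2, and a list that compares the replicates with each other held 58002. The signal value of a peak is the authors' own, has no unit and is not on 1 scale between lists, so no SD was formed. Peak lists give no read counts, and the depth is unknown.

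T22C8.4 peaks had summits in the promoter windows of 10 histone genes. These genes encode all 4 core histones, an H3.3-type histone and the linker histone H1. Core H3 rests on his-59 alone, whose summit lay in the coding exon of his-60 and was in neither replicate's own list nor the conservative list. The his-15 summit lay 994 bp upstream, in an exon of ZK131.11. These were his-67 (H4), his-68 (H2A), his-15 (H2B), his-59 (H3), his-35 (H2A), his-41 (H2B), his-4 (H2B), his-3 (H2A), his-72 (H3.3) and his-24 (H1). The 10 genes are 13.9% of the 72, against 1215 genes or 6.08% of all protein-coding genes, a ratio of 2.28. They were reached by 11 peaks in 9 separate stretches of DNA, since divergent neighbours shared peaks and his-72 had 3, so the genes are not independent. Signal values ran from 6.33 to 161.75 with a median of 73.3 at histone promoters, against a median of 103.6 over the 1047 peaks at promoters of all protein-coding genes. The best-placed histone peak ranked 541 of 2415.

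A peak that overlapped a peak in each replicate's own list was found for 5 histone genes (6.94%), against 2.48% of all protein-coding genes. They were his-67, his-68, his-15, his-35 and his-41. A peak with support in a single replicate's list was found for his-72, his-3 and his-4, and his-59 and his-24 had support in neither. By peak, 4 of 11 (36.4%) lay in both lists and 4 in neither, against 405 (38.7%) and 264 (25.2%) of the 1047 promoter peaks. The paired peaks of his-35/his-41 overlap the same replicate entries but count separately among those in both lists. Those of his-4/his-3 likewise overlap the same entry of replicate 1. All 11 peaks overlapped an entry of both replicates' longer ranked lists. The matching share of the 1047 promoter peaks was not counted, so this does not set the histone peaks apart. Those lists lack the IDR cut and had entries at 45.7% of all protein-coding genes in replicate 1 and 45.5% in replicate 2. The replicates' own lists placed a summit at 6 histone genes each, 8.33% of the 72, against 4.3% of all protein-coding genes in replicate 1 and 3.28% in replicate 2.

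**Figure D1:**
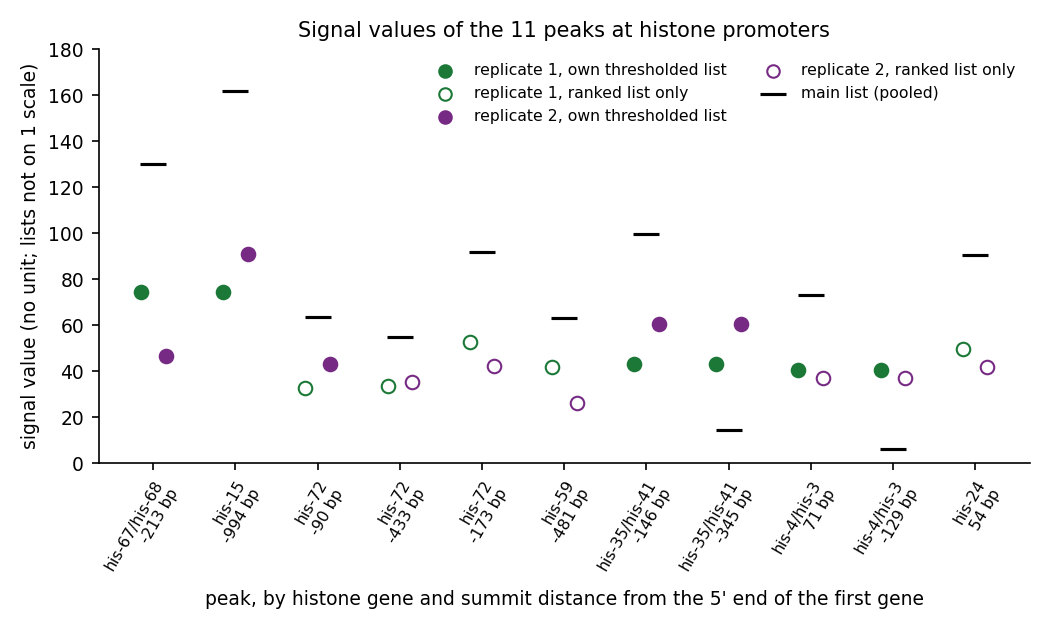
Authors' signal values (no unit, vertical axis) of the 11 peaks at histone promoters (horizontal axis, with the summit's distance from the first gene's 5' end, negative upstream). Filled circles are entries of a replicate's own thresholded list, open circles are entries of its ranked list only, and dashes are the main list; the paired peaks of his-35/his-41 and of his-4/his-3 share their replicate entries. Of the 11 peaks, 4 have 2 filled circles and 4 have none.

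The 72 genes fell into 14 clusters of 2 to 13 genes, when genes less than 10000 bp apart were linked, and 5 genes stood alone. A cluster is named here by its chromosome and a letter for its order along it. Core histone genes numbered 66, among them his-39 and his-73, which the annotation describes only as holding a histone H2A/H2B/H3 domain. The H3.3-type genes were his-69, his-70, his-71, his-72 and his-74, and his-24 was the only H1 gene with a his- name. Of the core genes 8 of 66 had a promoter summit, and of the 6 variant genes 2 did, against 6.08% of all protein-coding genes. Core here means every gene that is neither of the H3.3 type nor H1. The 8 include his-35 and his-41, which span 630 and 729 bp and have an annotated 5' UTR, unlike 64 of the 72 genes. By type, summits lay at 1 of 16 H4 genes, 3 of 17 H2A genes, 3 of 16 H2B genes and 2 of 20 H3 genes, H3.3 types included.

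Summits fell in 5 of the 14 clusters and at 2 of the single genes, his-72 and his-24. Both genes of cluster I-a, 2 of 3 genes of V-d and 2 of 4 genes of V-e had a summit, against 1 of 4 genes in IV-a and 1 of 13 genes in II-a, the largest cluster. The other 9 clusters held 41 histone genes with no main-list summit. Divergent pairs, with 5' ends within 1000 bp on opposite strands, made up 62 of the 72 genes (86.1%), against 3539 (17.7%) of all protein-coding genes. Their promoters were 227 to 368 bp long between the 5' ends. Among these 62 genes 8 had a summit (12.9%), against 12% of all divergent protein-coding genes. The histone share was thus near that of divergent genes as a whole.

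**Figure D2:**
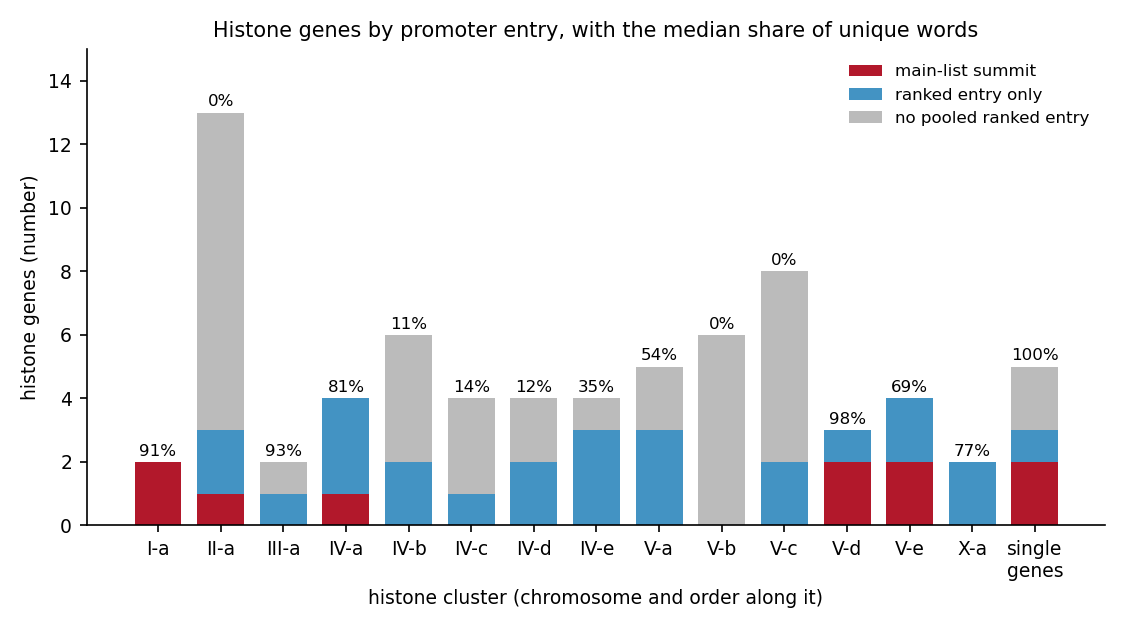
Number of histone genes (vertical axis) in each cluster and among the single genes (horizontal axis), by whether the promoter window held a main-list summit (red), an entry of the pooled ranked list only (blue) or no such entry (grey). The number over each bar is the median share of 32-base words in the promoter windows found once in the genome, in percent. Clusters II-a, V-b and V-c have medians of 0% and hold 1 gene with a main-list summit between them.

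The peak shared by his-67, an H4 gene, and his-68, an H2A gene (chromosome I, 9988831 to 9989120), was the strongest at a divergent histone promoter. Its signal value was 130 in the main list, 74.47 in replicate 1 and 46.72 in replicate 2. Both replicates held it in their own lists, at rank 736 of 1629 in replicate 1 and rank 1251 of 1319 in replicate 2. The summit lay between the genes, 213 bp upstream of his-67 and 156 bp upstream of his-68. The window of alg-5, which encodes an Argonaute protein, also held this summit, 826 bp upstream.

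The strongest histone peak lay at the edge of the window of his-15, an H2B gene (chromosome II, 13817232 to 13817521). Its signal value was 161.75 in the main list, 74.36 in replicate 1 and 90.9 in replicate 2, and both replicates' own lists held it. The summit was 994 bp upstream of his-15, outside the divergent promoter that his-15 shares with the H2A gene his-16, and 766 bp downstream of the 5' end of his-16. It lay in a noncoding part of an exon of ZK131.11. In replicate 1 the summit of the overlapping peak lay 37 bp away, so that replicate's own list placed no summit in the window. The remaining 12 genes of cluster II-a (13817760 to 13828697) had no main-list summit.

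At his-35, an H2A gene, and his-41, an H2B gene, overlapping peaks covered the shared promoter (chromosome V, 9545289 to 9545777). The stronger had signal values of 99.74 in the main list, 42.99 in replicate 1 and 60.63 in replicate 2, and both replicates' own lists held it. Its summit lay 146 bp upstream of his-35 and 102 bp upstream of his-41. The window of C50F4.6 also held this summit, 658 bp upstream. The weaker, with a signal value of 14.24, overlapped the same replicate entries. Its summit lay 97 bp downstream of the 5' end of his-41, in a coding exon, and 459 bp upstream of C50F4.6. The his-37 gene of the same cluster, which encodes H4, had its nearest main-list summit 1472 bp upstream, outside the window, and a ranked entry of 53.43 at 82 bp upstream. The promoter between the pair is printed because it was the only divergent histone promoter on V with support in both replicates, and because it resembled no other H2B-H2A promoter by more than 58.3%. It is given from the his-41 side to the his-35 side (ce11, minus strand, chrV:9545289-9545535), with the bases ATCGAT in capitals.
his-41/his-35: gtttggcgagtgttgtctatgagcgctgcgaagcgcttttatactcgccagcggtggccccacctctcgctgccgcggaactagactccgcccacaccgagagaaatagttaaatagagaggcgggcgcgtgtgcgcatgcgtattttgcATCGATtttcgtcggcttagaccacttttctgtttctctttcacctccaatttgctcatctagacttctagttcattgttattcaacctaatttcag

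The H2B gene his-4 and the H2A gene his-3 shared the other pair of overlapping peaks (chromosome V, 16040299 to 16040788). The stronger had signal values of 73.32 in the main list and 40.31 in replicate 1, and its summit lay 71 bp inside the coding exon of his-4 and 364 bp upstream of his-3. Replicate 2 had an entry of 36.94 there in its ranked list only. The weaker, with a signal value of 6.33, had its summit between the genes, 129 bp upstream of his-4 and 164 bp upstream of his-3. The stretch also lay within 150 bp of the noncoding RNA gene T10C6.19. The neighbouring pair his-2 (H3) and his-1 (H4) had no main-list summit in its windows, and the nearest lay 1876 bp upstream of his-1.

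Other H2B-H2A promoters have nearly the same sequence as that of his-4 and his-3, which is why 3 of them are printed. The promoter of his-4 and his-3 was identical at all but 38 of 292 positions to that of his-8 and his-7 (87.0%) and at all but 33 to that of his-52 and his-51 (88.7%). Those of his-8/his-7 and his-52/his-51 differed at 13 positions (95.5% identity). Neither his-8 and his-7 nor his-52 and his-51 had an entry in any ranked list. The share of short sequence words found once in the genome was 98.5% for the his-4/his-3 promoter and 76.2% for his-8/his-7. The windows of his-8 and his-7 had 47.86% and 49.32%. For his-52/his-51 the share was 0%, so the lack of an entry there does not show that T22C8.4 was absent. Whether repetition or the differing bases bear on the entries was not tested for these 3 promoters. Each is written from the H2B gene to the H2A gene, with capitals at the 42 positions where the 3 are not all alike (ce11; chrV:16040516-16040807 on the plus strand, chrV:8533087-8533378 on the plus strand and chrV:8850172-8850463 on the minus strand).
his-4/his-3: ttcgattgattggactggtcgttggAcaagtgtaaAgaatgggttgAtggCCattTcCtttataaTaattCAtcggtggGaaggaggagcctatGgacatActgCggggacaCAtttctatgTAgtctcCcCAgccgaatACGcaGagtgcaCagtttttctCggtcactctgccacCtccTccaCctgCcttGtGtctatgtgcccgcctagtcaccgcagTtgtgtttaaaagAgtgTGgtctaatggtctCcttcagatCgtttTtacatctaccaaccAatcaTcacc
his-8/his-7: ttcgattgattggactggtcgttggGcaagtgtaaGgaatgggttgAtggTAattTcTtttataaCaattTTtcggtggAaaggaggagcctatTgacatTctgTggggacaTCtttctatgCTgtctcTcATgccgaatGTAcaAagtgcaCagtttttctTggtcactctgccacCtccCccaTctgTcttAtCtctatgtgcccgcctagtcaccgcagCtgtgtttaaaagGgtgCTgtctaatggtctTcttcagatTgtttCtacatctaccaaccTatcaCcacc
his-52/his-51: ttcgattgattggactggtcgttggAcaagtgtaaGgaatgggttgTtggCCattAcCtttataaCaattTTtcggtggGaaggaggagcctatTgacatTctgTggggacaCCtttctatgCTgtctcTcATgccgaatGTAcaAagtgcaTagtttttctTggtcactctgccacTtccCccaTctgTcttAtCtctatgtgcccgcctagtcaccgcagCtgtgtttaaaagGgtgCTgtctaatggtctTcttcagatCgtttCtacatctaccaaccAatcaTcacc

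At his-59, an H3 gene, the summit lay 481 bp upstream of the 5' end, within the coding exon of its divergent H4 partner his-60 and 224 bp inside that gene (chromosome IV, 7487623 to 7487912). Its signal value was 63.32 in the main list, and its score, which the authors computed from the IDR and capped at 1000, was 865, against 1000 for 9 of the 11 histone peaks. Ranked entries of 41.85 in replicate 1 and 26.01 in replicate 2 overlapped it, and neither replicate's own list nor the conservative list held it. The conservative list instead placed a summit in the window of his-60. In the same cluster, his-61 (H2A) had this summit 1551 bp upstream of its 5' end. The bases around the summit are coding sequence of his-60 and held neither ATTGAT nor ATCGAT (ce11, plus strand, chrIV:7487718-7487818).
his-59: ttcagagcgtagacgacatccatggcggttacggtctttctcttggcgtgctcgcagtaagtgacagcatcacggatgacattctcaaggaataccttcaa

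Of the 5 H3.3-type genes, only his-72 had main-list summits, 3 of them (chromosome III, 12368109 to 12369367). The gene has more than 1 annotated 5' end. The strongest peak lay 173 bp upstream of the outer 5' end, with signal values of 91.81 in the main list and, from the ranked lists only, 52.69 in replicate 1 and 42.1 in replicate 2. Those 90 bp and 433 bp upstream of the inner 5' end lay in an intron of his-72, within 150 bp of the snoRNA gene Y49E10.36, and had signal values of 63.7 and 55.0. Replicate 2's own list held the peak of 63.7, at 43.13, and neither replicate's own list held the other intronic peak, whose score was 864. Summits within 150 bp of a snoRNA gene made up 2 of the 11 histone peaks, against 21 (2.01%) of the 1047 promoter peaks. The window of Y75B8A.33 also held the peak of 63.7. The bases around the outermost summit are printed because that peak alone lies upstream of the whole gene (ce11, minus strand, chrIII:12369173-12369273), with ATCGAT in capitals.
his-72: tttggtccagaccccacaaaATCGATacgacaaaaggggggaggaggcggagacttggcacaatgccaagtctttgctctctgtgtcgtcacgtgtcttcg

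The other H3.3-type genes differed in their weak entries. In the ranked lists his-70 had 59.45 in the pooled list, 23.53 in replicate 1 and 35.63 in replicate 2, at 944 bp upstream. The his-71 window held 29.36 in the pooled list, 22.97 in replicate 1 and 19.12 in replicate 2. The window of his-69 held entries of 13.79 in replicate 2 and 32.35 in the list that compares the replicates, and none in the pooled list or in replicate 1. No ranked list had an entry for his-74. At least 86.67% of the words of 32 bases in each of these 5 windows occurred once in the genome.

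The linker histone gene his-24 had a summit 54 bp downstream of its 5' end, in a coding exon (chromosome X, 14490003 to 14490292). Its signal values were 90.73 in the main list and, in the ranked lists, 49.46 in replicate 1 and 42.01 in replicate 2. Neither replicate's own list held it. It lay within 150 bp of the noncoding RNA gene M163.19, and the lists have no strand by which to assign a peak to either gene. The part of the peak upstream of his-24 is printed to show what precedes the gene, and held neither ATTGAT nor ATCGAT (ce11, plus strand, chrX:14490003-14490093).
his-24: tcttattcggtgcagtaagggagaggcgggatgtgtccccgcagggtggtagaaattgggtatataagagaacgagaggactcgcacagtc

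The position of summits at histone genes varied. The strongest summit of each of the 10 genes lay at a median of 164.5 bp upstream, ranging from 994 bp upstream to 71 bp downstream, against a median of 269 bp upstream for the 1215 protein-coding genes with a summit. Summits inside a coding exon made up 4 of the 11 histone peaks (36.4%), against 82 (7.83%) of the 1047 promoter peaks. The 4 were those at his-59, his-24, the weaker at his-41 and the stronger at his-4. Histone genes are short, and 64 of the 72 have no annotated 5' UTR, so the start codon stands in for the 5' end. Distances at those genes are therefore to the start codon. Both his-24 and his-41 have an annotated 5' UTR, so their distances are to the transcript's 5' end.

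The bases ATTGAT or ATCGAT, searched on both strands (ATCGAT is its own reverse complement), were chosen from earlier results of these data. They occurred within 50 bp of the summit in 4 of the 11 histone peaks (36.4%), those of his-15 and the 3 of his-72, and in 5 of 22 windows 300 to 400 bp away (22.7%). Among all 1047 promoter peaks 669 (63.9%) held them within that distance of the summit, against 18.9% of the windows beside these peaks. The peaks at his-67/his-68, his-35/his-41, his-4/his-3, his-59 and his-24 did not hold them within 50 bp of a summit. The printed promoter of his-4 and his-3 held 1 match, ATTGAT, inside both peaks there but more than 50 bp from either summit. The ATCGAT printed for his-41 and his-35 lay 49 to 54 bp from the stronger summit, across the 50-bp limit. A match is a description of letters and shows no binding site.

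Histone promoters repeat one another, and this may bear on the counts above. For each gene the share of 32-base words in the window that occur once in the genome, on either strand, was counted. Reads that match several places cannot be assigned to 1 of them, and the sources used here do not give how the submitters treated such reads. The median share was 22.6% for the 72 histone genes, against 100% for all protein-coding genes. Under 50% of words were unique for 43 histone genes (59.7%), against 605 (3.03%) of all protein-coding genes. The window held no unique word at all for 20 histone genes (27.8%), against 179 (0.896%) of all protein-coding genes.

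Entries of the ranked lists lay in windows of 35 histone genes in the pooled list (48.6%), 32 in replicate 1 (44.4%) and 33 in replicate 2 (45.8%). Of all protein-coding genes, 51.6% had an entry in the pooled list, 45.7% in replicate 1 and 45.5% in replicate 2, so the histone shares lay near the background. Both replicates' ranked lists had an entry for 28 histone genes (38.9%), against 6102 (30.6%) of all protein-coding genes. The highest pooled signal per gene had a median of 59.5 over the 35 histone genes with an entry, against 39.1 over the 10311 protein-coding genes with an entry. Divergent histone neighbours often share an entry, whose value then enters the median for both genes. The 35 also include the 10 genes with a main-list summit.

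Split by uniqueness, the histone genes fell apart. Where at least 90% of words were unique, 5 of 9 histone genes had a main-list summit (55.6%) and 7 of 9 a pooled ranked entry (77.8%), against 6.17% and 52.3% of the 17030 protein-coding genes with such windows. These 9 were the variants his-24, his-69, his-71, his-72 and his-74 and the core genes his-35, his-37, his-41 and his-68. Uniqueness and histone kind are therefore mixed in this group, and his-35 and his-41 share their peaks. Between 50% and 90%, 4 of 20 histone genes had a main-list summit and 19 of 20 a ranked entry, against 6.76% and 55.4% of 2338 protein-coding genes. The peak shared by his-67 (89.74% unique) and his-68 (91.88%) counts in both of these groups. Under 50%, a main-list summit was found for 1 of 43 histone genes, his-15, or 2.33%, and a pooled ranked entry for 9 (20.9%), against 1.16% and 17.5% of the 605 protein-coding genes with such windows. None of the 20 histone genes whose window had no unique word had an entry in the pooled list or in either replicate's ranked list. The part of sequence repetition in these counts was not tested, and an empty window there does not show that T22C8.4 was absent.

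**Figure D3:**
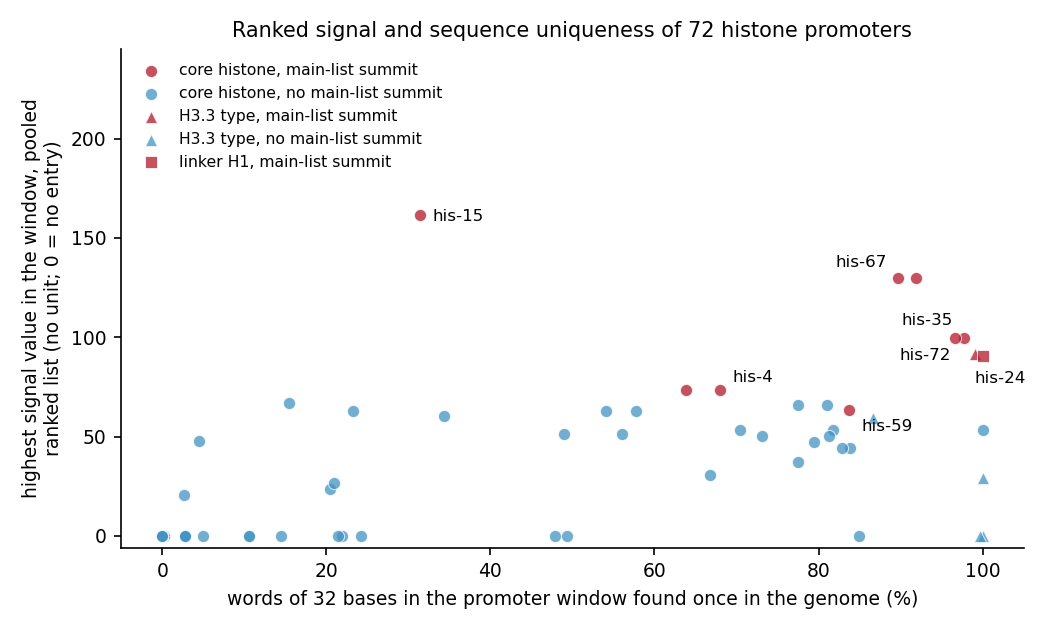
Highest signal value in the promoter window in the pooled ranked list (no unit, 0 where there is no entry, vertical axis) against the share of 32-base words found once in the genome (percent, horizontal axis) for 72 histone genes. Red marks genes with a main-list summit and blue marks the others, with circles for core histones, triangles for H3.3 types and the square for his-24. Of the 43 genes left of 50%, only his-15 is red.

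The divergent promoters, taken as the bases between the 5' ends, were split by whether they had an identical copy. Of the 31 promoters 16 had an identical copy among the other histone promoters of the same type, and no main-list peak or pooled ranked entry overlapped any of them. Of the 15 without an identical copy, 10 were overlapped by a ranked entry and 3 held a main-list summit. Identical copies made up 11 of 16 H2B-H2A promoters and 5 of 14 H3-H4 promoters, and the H2A-H4 promoter of his-68 and his-67 had none. Summits of the main list lay between the genes in 2 H2B-H2A promoters and in the H2A-H4 promoter, and in 0 of the H3-H4 promoters. Ranked entries overlapped 3 H2B-H2A promoters and 6 H3-H4 promoters.

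All 6 genes of cluster V-b have a copy among the 8 genes of V-c. The 6 genes his-50, his-49, his-51, his-52, his-54 and his-53 recur in the same order as his-28, his-27, his-21, his-22, his-20 and his-19, each exactly 42095 bp further along chromosome V. In the reference the stretch around them is identical over 15287 bp, from 8840017 to 8855303 and from 8882112 to 8897398. No ranked entry lay in a window of these 12 genes. The pair that ends V-c, his-17 (H3) and his-18 (H4), lies outside the repeat and had pooled entries of 60.18 and 47.95.

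**Figure D4:**
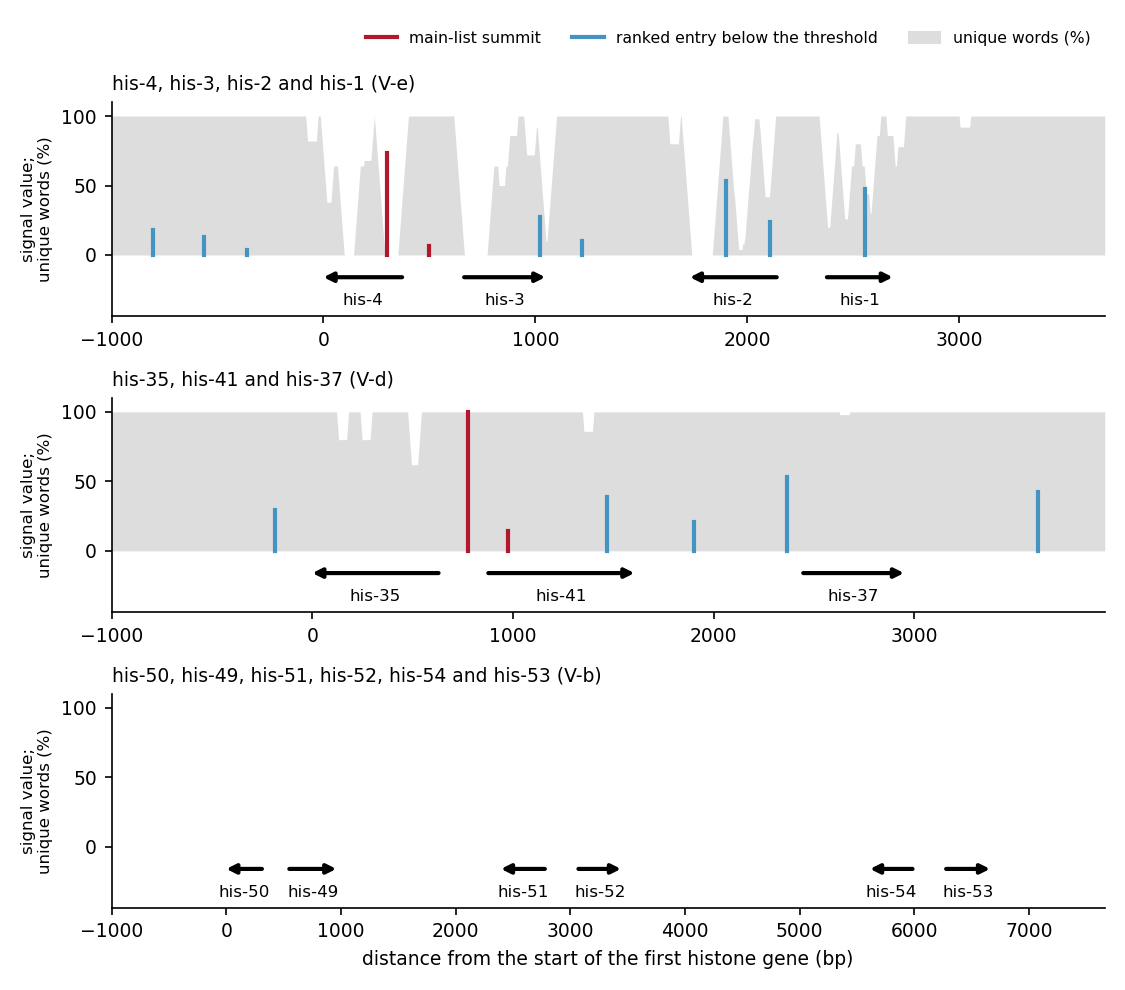
Maps of clusters V-e, V-d and V-b, with distance in bp from the start of the first histone gene on the horizontal axis. Vertical lines are summits of the pooled ranked list with their authors' signal value (no unit), red where the main list holds them, grey fill is the percentage of 32-base words found once in the genome in a running window of 50 bp, and arrows are genes. Main-list summits reach 99.74 in V-d and 73.32 in V-e, and V-b has neither unique words nor entries over its genes.

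Several histone promoters lay below the IDR threshold of the main list, whose lowest score was 830. The next scores were 701 for the entry of 62.74 shared by his-5 (H4) and his-6 (H3), with 31.11 in replicate 1 and 36.91 in replicate 2, and 681 for the entry of 51.33 shared by his-63 (H3) and his-64 (H4), with 36.46 in replicate 1 and 25.19 in replicate 2. The pair his-61 (H2A) and his-62 (H2B) shared an entry of 65.99, with 31.51 in replicate 1 and 40.96 in replicate 2, and a score of 141. That pooled value was above the 63.32 of the main-list peak at his-59, whose score was 865. On X, his-38 (H4) and his-40 (H3) shared an entry of 50.11.

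Genes that work with histones were read from a list of 26: linker histones, histone variants, the stem-loop binding protein of histone mRNA, and histone chaperones. Of these, 3 had a promoter summit (11.5%), against 6.08% of all protein-coding genes. The hcp-3 gene, which encodes the centromeric histone CENP-A, had 199.6 in the main list, 119.1 in replicate 1 and 79.5 in replicate 2, with the summit 219 bp upstream. At unc-85, an ASF1-type histone chaperone, the values were 77.6 in the main list and 65.2 in replicate 1, with no peak in replicate 2's own list. The summit of 136.4 in the window of nasp-2, a NASP-type histone chaperone, lay 979 bp upstream and nearer the 5' end of C50B6.3. None of the 8 linker histone genes named hil- had a main-list summit, against 6.08% of all protein-coding genes. With 8 genes this sets up no contrast with his-24. A pooled ranked entry was found for 4 of the 8, against 51.6% of all protein-coding genes. The H2A.Z gene htz-1 had a ranked entry of 34.5 only.

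The conservative list named 10 histone genes as well (13.9%), against 5.9% of all protein-coding genes, with his-60 in place of his-59. In the stronger part of the main list, 1207 peaks ranked by signal, 3 histone genes remained, his-67, his-68 and his-15, or 4.17%, against 3.27% of all protein-coding genes. A narrower count gave each summit only to the nearest gene among those whose window held it. It left 7 histone genes (9.72%), against 4.78% of all protein-coding genes. These include his-15 and his-59, although his-16 and his-60 have the nearer 5' ends. No untagged strain, input or other stage was analysed here, so histone genes are compared with other genes of the same embryos alone.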

How the data were processed

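Peaks came from chromatin immunoprecipitation and sequencing of T22C8.4-eGFP embryos, 2 biological replicates, per the labels on assembly ce11. Which aligner and caller were used is not given in the sources used here. Each deposited list gave the authors' signal value, the authors' score (from the IDR, capped at 1000) and a summit offset, used unchanged. The main and conservative lists and 2 of the 4 ranked lists cover both replicates, and the remaining lists cover a single replicate each. Depth is unknown.

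Members and lists were chosen with earlier results of these data known. Genes came from Ensembl release 115 (WBcel235, the same assembly) and names and products from RefSeq, which matched all 72 genes. A summit counted when it was at most 1000 bp upstream or 200 bp downstream of a transcript's 5' end, and lists shared a peak when it overlapped by at least 1 bp. Word uniqueness (32 bases, both strands), promoter identity and matches were computed with Python 3.11.15, numpy 2.4.6 and pandas 2.3.3, and window counting and word uniqueness were tested on simulated data. Sequences were read from the ce11 reference. With 1 group no test between conditions was possible, and genes are not replicates, so no p-value is given. Named were all histone genes with a main-list summit or one within 2000 bp upstream, all variants, nearer genes at those summits and comparison-list genes with a summit. Other genes were named after their values were seen. Other settings tried were the conservative list, the lists of single replicates, the stronger part of the list and other windows. Further ones were the nearest gene among those whose window held the summit, overlap in place of summit, and other cluster distances.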

Additional observations from a re-analysis of the deposited data

How the results depend on the processing

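Of 30 recalculated values, 24 stayed within 1.5 times the main count or, for the ratio to all protein-coding genes, within the exact binomial 95% interval of the histone share. That interval, 6.87% to 24.1%, treats the 72 genes as independent, which they are not. It is also wide enough to hold a ratio of 1.27, so the count of 24 is a lenient measure of stability. Leaving out either replicate gave 6 histone genes in place of 10, with 3 to 4 distinct peaks in place of 11, while the ratio ran from 1.94 to 2.54. His-72 and his-15 were lost without replicate 2, and his-3 and his-4 without replicate 1, with his-59 and his-24 lost both times. In the stronger part of the list 3 genes and 2 peaks remained, with a ratio of 1.27. The ratio ran from 2.03 to 2.66 over the other list, windows and gene assignments. A window of 2000 bp upstream added his-61, his-37 and his-1, giving 13 genes, and 500 bp either side replaced his-15 by his-60. Genes supported by both replicates numbered 4 to 6 over their alternatives, and clusters with a summit 5 at every linking distance. No paired analysis was possible because the result comes from no test and there is 1 group. Depth is unknown, and repeated sequence may limit what 43 of the 72 windows can show.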
